A study of Mus musculus with 12 samples.

Results

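The genes described here are 32 transcripts of fatty acid burning in the mouse ileum: the peroxisome proliferator-activated receptors (PPARs), the enzymes of fatty acid oxidation that they are known to switch on, the ketone body enzyme gene Bdh1 and a few other classical PPAR targets. They were taken by symbol, as a list of names, from the 55891 genes of the deposited expression table. The rule uses no expression value, but the list was drawn up with earlier results of these data known. Of the 32 members, 31 were expressed highly enough to be tested and 1, Cyp4a10, was listed at 0 in all 12 libraries. Transcript levels were measured by mRNA sequencing of mucosal scrapings of the ileum, the last stretch of the small intestine, and are given as TPM, which scale a gene's reads by its length and by the library total. Of the 12 mice, 6 were labelled Erbb3-FF (mice 1 and 2 from litter B, mice 3 to 6 from litter A) and 6 ERBB3-dIE (mice 1 to 3 from litter B, mice 4 to 6 from litter A), all sampled at baseline without a treatment. Erbb3 encodes a neuregulin receptor that works in pairs with its ErbB relatives, and the study's title asks how it bears on the intestinal barrier and on Pmp22. The sources used here do not give the age of the mice, the deleter that acts on the Erbb3-FF allele or the altered part of the gene.

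Fatty acid oxidation shortens a fatty acid in repeated rounds. The chain is first activated to a coenzyme A ester, enters the mitochondrion through the carnitine shuttle, and then passes through a dehydrogenase, a hydratase, a second dehydrogenase and a thiolase, with the electrons handed to the respiratory chain. PPARs are nuclear receptors that sense fatty acids and bind DNA together with the retinoid X receptor. In the small intestine both Ppara and Ppard are known to respond to dietary fat, and absorptive enterocytes take up and handle that fat.

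Several libraries stood apart and are named before the results. Erbb3-FF mouse 3 is labelled litter A, but its 4 ileum marker genes summed to 48772 TPM, against 7249.9 to 12051 TPM in the other 6 mice of litter A and 28904 to 38663 TPM in the 5 mice of litter B. Its 9 B cell markers (126 TPM) were also near those of Erbb3-FF mice 1 and 2 of litter B (323 and 147 TPM) and above the other 9 libraries (at most 17.4 TPM). Ribosomal sequence, taken as the share of all TPM in the entries Mir6236 and Rn18s-rs5, was 10.2% and 10.8% in Erbb3-FF mice 5 and 6. It was at most 1.62% elsewhere. The 9 smooth muscle markers of ERBB3-dIE mice 4 and 5 summed to 171 and 153 TPM against at most 110 TPM elsewhere. Erbb3 itself, at 87.3 to 151 TPM in the Erbb3-FF group and 104 to 206 TPM in the ERBB3-dIE group, was not reduced at the gene level, which leaves the genotype labels unchecked by it. Pmp22, which the title names, ran from 548 to 790 and from 135 to 250 TPM without overlap. The enterocyte markers were present in every library (7279.9 to 30406 TPM summed over 12 genes). In a scraping, fewer cells of a type and less RNA per cell cannot be told apart.

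The members together made up 1778 to 2645 TPM in Erbb3-FF mice (median 2312) and 1988 to 2651 TPM in ERBB3-dIE mice (median 2281), so the 2 ranges almost coincided. By litter the sums did not coincide to that degree, with 1778 to 2468 TPM in litter A and 2371 to 2651 TPM in litter B. The most abundant member was Hadh, a dehydrogenase of the mitochondrial spiral, with a median of 272 TPM over the 12 libraries, followed by Hadha at 223 TPM. In all, 8 members had a mean of at least 100 TPM: Hadh, Hadha, Ech1, Acadm, Hadhb, Etfb, Acaa2 and Etfa. The tested member with the lowest median was the thioesterase gene Acot2, at 2.11 TPM.

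**Figure D1:**
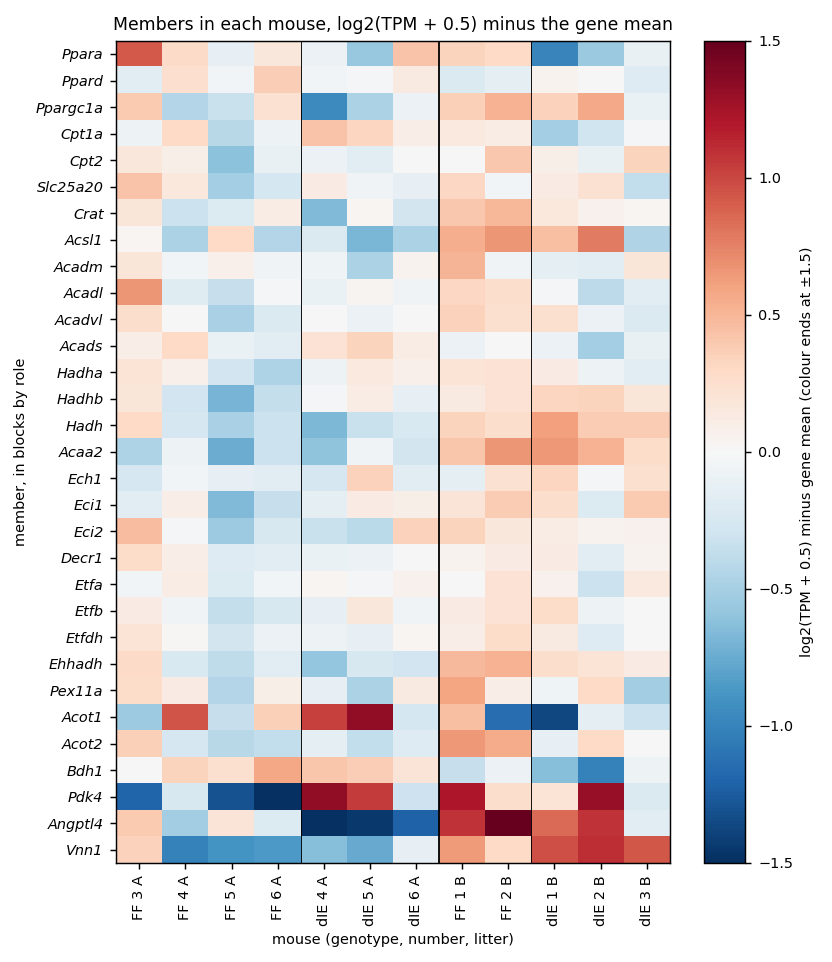
Each row is 1 of the 31 tested members and each column 1 mouse, named by genotype (FF, Erbb3-FF; dIE, ERBB3-dIE), number and litter. The colour is the gene's log2(TPM + 0.5) minus its mean over the 12 mice, red above and blue below, and it ends at 1.5 in either direction, so that larger deviations of Pdk4 and Angptl4 look the same as 1.5. The lower rows, Angptl4 and Vnn1, are redder in litter B on the right, and most oxidation enzymes are pale throughout.

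Between genotypes, 1 of the 31 tested members fell in ERBB3-dIE mice, Angptl4, and none rose. This was 3.23% of the tested members. Over all 12605 tested genes 5.36% were called, 3.7% lower and 1.66% higher in ERBB3-dIE mice, by the same limma test with Benjamini-Hochberg adjustment at 0.05 and litter as a covariate, so the members' share lay near the background. The members' median log2 difference (ERBB3-dIE minus Erbb3-FF, on the log2(TPM + 0.5) scale) was −0.06, against −0.00066 over all tested genes, and 26 of the 31 differences were smaller than 0.3 in size. For 19 members the whole 95% interval of the difference lay within 0.5 in either direction. At an unadjusted p under 0.05 there were 4 members, Angptl4, Ppara, Ehhadh and Crat, all with a negative difference, against 21.8% of all genes in either direction. Rescaled without ribosomal sequence, 196 genes were higher and 764 lower (209 and 467 in the fit reported), and after quantile normalization the members' median was 0.01, with Angptl4 the single member called in both. No member had ranges that did not overlap between the 6 and 6 mice, which 2.44% of all genes had.

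**Figure D2:**
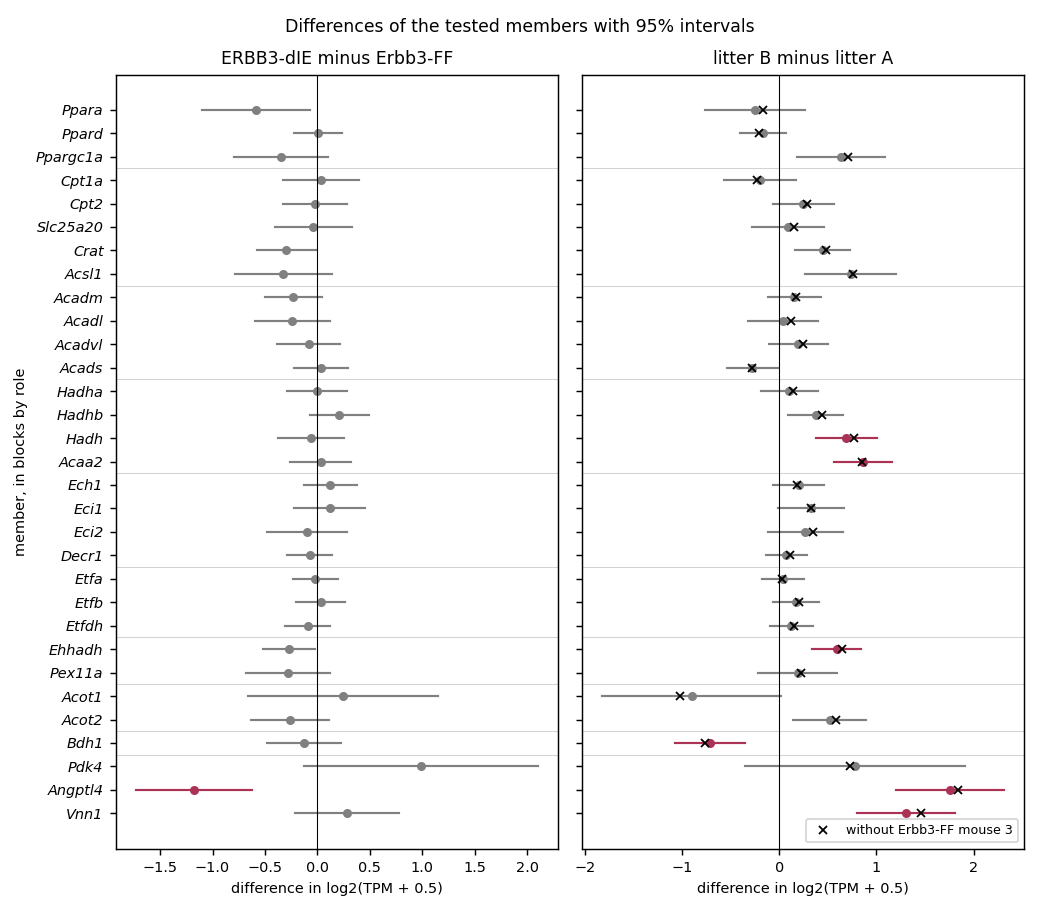
Points are log2 differences of the 31 tested members and bars their 95% intervals, for ERBB3-dIE minus Erbb3-FF mice on the left and for litter B minus litter A on the right, both from 1 limma fit over 12 mice. Red marks members with an adjusted p under 0.05, grey lines separate blocks of members by role, and crosses give the litter difference without Erbb3-FF mouse 3. On the left Angptl4 at −1.18 is the single red member, and on the right 5 red members lie above 0 and Bdh1 at −0.72 below it.

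Angptl4 encodes a secreted inhibitor of lipoprotein lipase, the enzyme that frees fatty acids from circulating triglyceride, and is among the genes most readily induced by PPARs. In litter A it was at 31.3, 16.3, 27.1 and 20.5 TPM in Erbb3-FF mice 3 to 6 and at 6.73, 8.33 and 9.92 TPM in ERBB3-dIE mice 4 to 6. In litter B it was at 50.7 and 78.0 TPM in Erbb3-FF mice 1 and 2 and at 42.9, 50.6 and 20.9 TPM in ERBB3-dIE mice 1 to 3. Within each litter every ERBB3-dIE mouse lay below every Erbb3-FF mouse, by the smallest of margins in litter B (50.6 against 50.7 TPM), while the ranges overlapped when the litters were pooled. Such a separation in both litters was found in 4.75% of all tested genes in the lower direction. The group means were 37.3 ± 23.2 and 23.2 ± 19.0 TPM (SD, n = 6 each), and the litter-adjusted log2 difference was −1.18 (SE 0.25, 95% interval −1.73 to −0.62, limma adjusted p = 0.0233). The difference was −1.43 within litter A and −0.81 within litter B. For Angptl4 the authors' deposited table holds −0.89 as the log2 fold change and 0.0314 as the adjusted p, and 7.51% of its 15490 genes with an adjusted p were lower.

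The call of Angptl4 did not hold under every fit. Without Erbb3-FF mouse 2, ERBB3-dIE mouse 4 or ERBB3-dIE mouse 5 the adjusted p was 0.0635, 0.0641 and 0.0618, with log2 differences of −1.15, −1.07 and −1.14, and without the litter term it was 0.476 with a difference of −0.88. Markers of other cells moved with the genotype beside it. Of 12 enterocyte markers 5 were lower in ERBB3-dIE mice (median log2 difference −0.71). Their summed level was 13488 to 30406 TPM in the Erbb3-FF group and 7279.9 to 22429 TPM in the ERBB3-dIE group. Within each litter these sums did not overlap. They were 13488 to 30406 TPM in Erbb3-FF and 7279.9 to 9344 TPM in ERBB3-dIE mice of litter A. The litter B sums were 25009 to 25577 TPM in Erbb3-FF and 15837 to 22429 TPM in ERBB3-dIE mice. Of 8 adipocyte markers 3 could be tested and 1 of them, Cidec, was lower (−1.41). The adipocyte sum was 28.4 to 123 TPM and 11.6 to 41.5 TPM, with the defining gene Adipoq at most at 4.11 TPM and Lep at most at 0.162 TPM in any library. Of 8 goblet cell markers 4 were higher in ERBB3-dIE mice and none lower (median 0.78), and their sums did not overlap, with 18784 to 30764 TPM in the Erbb3-FF group and 33249 to 67812 TPM in the ERBB3-dIE group. Of 10 T cell markers 3 were higher and none lower (median 0.72), with sums of 84.9 to 156 TPM and 132 to 455 TPM. The part of any of these cell types in the fall of Angptl4 was not tested.

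**Figure D3:**
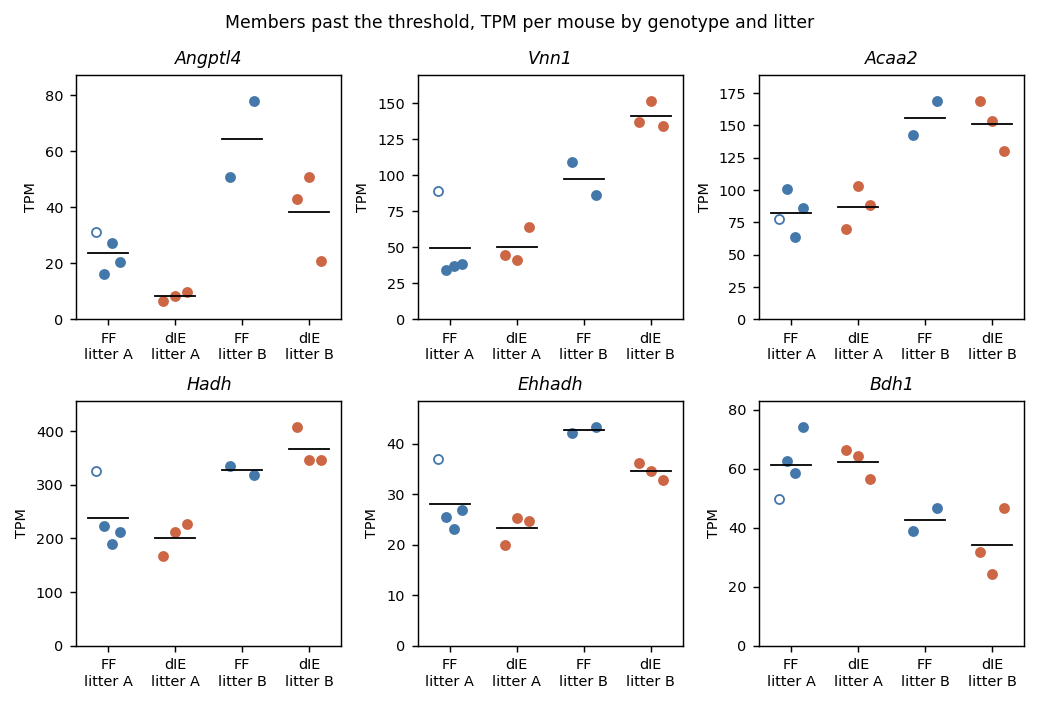
TPM of the 6 members with an adjusted p under 0.05 between genotypes or litters, by genotype and litter (FF, Erbb3-FF, blue; dIE, ERBB3-dIE, orange). Each point is 1 mouse, the open point is Erbb3-FF mouse 3, lines are means, and every axis starts at 0. Angptl4 is lower in ERBB3-dIE mice within each litter, and all 6 members were called between litters. The open point lies near litter B for Vnn1, Hadh and Ehhadh, and for Bdh1 it is the lowest of litter A.

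The PPAR receptors and their coactivator did not pass between genotypes. Ppara, whose receptor governs the fasting response of fatty acid oxidation, was at 6.75, 6.56, 10.4, 6.50, 4.76 and 5.97 TPM in Erbb3-FF mice 1 to 6. In ERBB3-dIE mice 1 to 6 it was at 2.39, 3.42, 4.81, 4.91, 3.39 and 7.20 TPM. The highest value was that of Erbb3-FF mouse 3. ERBB3-dIE mouse 6 lay above 5 of the 6 Erbb3-FF mice, whereas the other 5 ERBB3-dIE mice reached at most 4.91 TPM, just above the lowest Erbb3-FF mouse. The log2 difference of −0.59 (SE 0.23, 95% interval −1.10 to −0.07) had a limma adjusted p of 0.170. Ppard, the more abundant receptor, stayed between 49.3 and 74.5 TPM in the Erbb3-FF group and between 50.3 and 63.1 TPM in the ERBB3-dIE group, with a difference of 0.01 (95% interval −0.22 to 0.24). Ppargc1a, a coactivator of mitochondrial genes, was low at 1.65 to 5.68 TPM over all mice, with a difference of −0.35 (95% interval −0.80 to 0.10).

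None of the 5 genes of activation and the carnitine shuttle passed between genotypes. Acsl1, which couples long-chain fatty acids to coenzyme A, spanned 8.21 to 18.7 TPM in the Erbb3-FF group and 7.02 to 20.3 TPM in the ERBB3-dIE group. Cpt1a, the rate-limiting gate of the shuttle, was at 33.2 to 54.7 and 31.0 to 59.7 TPM (log2 difference 0.03, 95% interval −0.33 to 0.40). Slc25a20, the carrier across the inner membrane, and Cpt2, which returns the chain to coenzyme A, had differences of −0.04 and −0.02. Crat, the acetyltransferase for short chains, had the smallest p of this group. It was at 36.0, 38.5, 30.8, 21.5, 23.4 and 29.1 TPM in Erbb3-FF mice 1 to 6 and at 30.1, 28.2, 27.6, 16.9, 27.7 and 22.2 TPM in ERBB3-dIE mice 1 to 6. The ranges overlapped within litter A, while within litter B the ERBB3-dIE values lay below the Erbb3-FF values without overlap, as in 23.7% of all genes there. The litter-adjusted difference was −0.30 (adjusted p = 0.203).

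The 4 acyl-CoA dehydrogenases take the first oxidation step, each for its own range of chain lengths, and none passed. Acadvl, for very long chains, had a log2 difference of −0.08, Acadl, for long chains, −0.24, and Acads, for short chains, 0.03. Acadm, for medium chains, was at 253, 172, 202, 173, 188 and 172 TPM in Erbb3-FF mice 1 to 6 and at 162, 160, 202, 171, 128 and 185 TPM in ERBB3-dIE mice 1 to 6. Erbb3-FF mouse 1 was the highest and ERBB3-dIE mouse 5 the lowest, and the groups overlapped (difference −0.23, 95% interval −0.50 to 0.04, adjusted p = 0.316).

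Hadha and Hadhb encode the alpha and beta subunits of the mitochondrial trifunctional protein, which joins the hydratase, the second dehydrogenase and the thiolase for long chains. The genes lie head to head, with 272 bases between their annotated starts (chr5:30154980, minus strand, for Hadha and chr5:30155253, plus strand, for Hadhb; GRCm38.p6, RefSeq). The stretch is shown because it lies upstream of both members. It is the 250 bases before the Hadhb start on the plus strand, chr5:30155003-30155252, and capitals mark the 228 bases that also lie in the window of 250 bases before to 50 after the Hadha start.
Hadhb upstream: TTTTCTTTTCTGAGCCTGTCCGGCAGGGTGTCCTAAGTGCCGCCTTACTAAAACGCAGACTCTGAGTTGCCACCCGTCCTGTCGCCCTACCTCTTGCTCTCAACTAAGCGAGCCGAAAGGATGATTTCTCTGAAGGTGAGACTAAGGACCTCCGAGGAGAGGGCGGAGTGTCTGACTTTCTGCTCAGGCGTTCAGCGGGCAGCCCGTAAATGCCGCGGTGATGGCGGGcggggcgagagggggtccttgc

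Hadhb had the smallest genotype p of the 4 genes of hydration, second oxidation and thiolysis. It was at 167, 177, 172, 124, 93.8 and 119 TPM in Erbb3-FF mice 1 to 6 and at 191, 192, 172, 150, 165 and 139 TPM in ERBB3-dIE mice 1 to 6. The lowest values were those of Erbb3-FF mice 4 to 6, and the remaining Erbb3-FF mice lay within the ERBB3-dIE range. Fitted with litter, Hadhb differed by 0.21 (SE 0.13, limma adjusted p = 0.381), while the authors' deposited table gives 0.28 with an adjusted p of 0.0399. Without Erbb3-FF mice 5 and 6, the libraries rich in ribosomal sequence, Hadhb differed by 0.075 (limma adjusted p = 0.716). Its partner Hadha had a difference of 0.00 (−0.0046; 95% interval −0.29 to 0.28). The ratio of Hadhb to Hadha TPM ran from 0.543 to 0.779 in Erbb3-FF mice (median 0.697) and from 0.626 to 0.965 in ERBB3-dIE mice (median 0.790), and these ranges overlapped. Hadh and Acaa2, which serve shorter chains, had genotype differences of −0.06 and 0.03.

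None of the 4 genes that prepare unsaturated chains and of the 3 that carry the electrons away passed between genotypes. Decr1, a reductase of double bonds, ran from 24.6 to 34.2 TPM over all 12 mice, and Eci1 and Eci2, isomerases of double bonds, had log2 differences of 0.12 and −0.10. Ech1, another isomerase, had the smallest p of its group. It was at 177, 228, 162, 189, 178 and 173 TPM in Erbb3-FF mice 1 to 6 and at 242, 191, 229, 163, 246 and 173 TPM in ERBB3-dIE mice 1 to 6, so that both groups reached down to about the same level (difference 0.12, adjusted p = 0.580). Etfa and Etfb, the subunits of the electron transfer flavoprotein, had differences of −0.02 and 0.03 with 95% intervals of −0.24 to 0.20 and −0.20 to 0.27. Etfdh passes these electrons on to ubiquinone. It was at 45.3, 51.4, 48.8, 42.9, 34.9 and 39.7 TPM in Erbb3-FF mice 1 to 6 and at 46.6, 37.0, 42.5, 40.1, 39.0 and 43.4 TPM in ERBB3-dIE mice 1 to 6. All 6 ERBB3-dIE values lay inside the Erbb3-FF range (difference −0.09, adjusted p = 0.622).

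Of the peroxisomal members, Ehhadh, the bifunctional enzyme of the peroxisomal spiral and a classical PPAR target, was at 42.1, 43.3, 36.9, 25.6, 23.1 and 26.8 TPM in Erbb3-FF mice 1 to 6. In ERBB3-dIE mice 1 to 6 it was at 36.1, 34.6, 32.8, 19.9, 25.3 and 24.6 TPM. Within litter B all 3 ERBB3-dIE mice lay below both Erbb3-FF mice, as in 23.7% of all genes there. The Ehhadh ranges overlapped in litter A (log2 difference −0.27, 95% interval −0.52 to −0.02, limma adjusted p = 0.187). Pex11a, which promotes the division of peroxisomes, had a difference of −0.28 (95% interval −0.68 to 0.12). The thioesterase genes Acot1 and Acot2, which cleave coenzyme A esters in the cytosol and in mitochondria, are near-identical copies, and reads may have been split between them, so their values are uncertain. Acot1 ran from 1.31 to 11.3 TPM (difference 0.24, 95% interval −0.66 to 1.15). Acot2 was at 4.00, 3.69, 3.17, 1.90, 1.65 and 1.70 TPM in Erbb3-FF mice 1 to 6 and at 2.12, 3.01, 2.35, 2.10, 1.72 and 2.01 TPM in ERBB3-dIE mice 1 to 6 (difference −0.26, adjusted p = 0.414). The 3 highest Acot2 values were those of Erbb3-FF mice 1 to 3.

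Among the other PPAR targets, Vnn1 encodes a pantetheinase of the brush border that recovers pantothenic acid from coenzyme A breakdown. In litter A it was at 88.9, 34.4, 37.4 and 38.4 TPM in Erbb3-FF mice 3 to 6 and at 44.9, 41.3 and 64.4 TPM in ERBB3-dIE mice 4 to 6. In litter B it was at 109 and 86.5 TPM in Erbb3-FF mice 1 and 2 and at 137, 152 and 134 TPM in ERBB3-dIE mice 1 to 3. Within litter B the ERBB3-dIE values lay above the Erbb3-FF values without overlap, as in 8.73% of all genes there. Within litter A the ranges overlapped, through Erbb3-FF mouse 3. With all 12 mice the genotype difference was 0.28 (SE 0.23, limma adjusted p = 0.515), and without Erbb3-FF mouse 3 it was 0.47 with an adjusted p of 0.0492, where 1.61% of all genes were higher. For Vnn1 the authors' deposited table holds 0.52 as the log2 fold change and 0.00097 as the adjusted p, and 5.07% of its genes were higher. Cyp4a10, a fatty acid omega-hydroxylase and one of the strongest PPAR targets of mouse liver, was listed at 0 in every library, as were its relatives Cyp4a12a, Cyp4a14 and Cyp4a31.

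More members passed between litters than between genotypes. Of 31 tested members 5 were higher in litter B (Angptl4, Vnn1, Acaa2, Hadh and Ehhadh) and 1 was lower (Bdh1), in all 19.4% of those tested. Over all 12605 genes 8.55% were called, 7.16% higher and 1.4% lower in litter B, by the same limma fit. The members' median litter difference was 0.19 (litter B minus litter A), against 0.05 over all tested genes. Of the members' differences 25 of 31 were positive, as were 7012 of 12605 over all tested genes. At an unadjusted p under 0.05 there were 12 members, where 29.4% of all genes were below it. The same 6 members were called after rescaling without mitochondrially encoded genes, after median-of-ratios scaling and after quantile normalization, which added Acads on the lower side. Under these scalings the members' medians were 0.10, 0.14 and 0.06, and 343 genes were higher and 143 lower, 447 and 323, and 678 and 453, against 902 and 176 in the fit reported. Each litter is 1 family of mice, so a litter difference cannot be told apart from any other difference between the families or their handling.

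Angptl4 differed most between litters, with 17.2 ± 9.57 TPM in litter A (SD, n = 7) and 48.6 ± 20.4 TPM in litter B (n = 5), a genotype-adjusted log2 difference of 1.76 (SE 0.26, limma adjusted p = 0.0111). Vnn1 was at 49.9 ± 19.8 and 124 ± 25.9 TPM (1.30, adjusted p = 0.0172). The Vnn1 ranges overlapped through Erbb3-FF mouse 3 of litter A (88.9 TPM) and Erbb3-FF mouse 2 of litter B (86.5 TPM). The Angptl4 ranges overlapped through ERBB3-dIE mouse 3 of litter B (20.9 TPM), which lay below Erbb3-FF mice 3 and 5 of litter A.

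Acaa2, a mitochondrial thiolase that releases an acetyl unit at the end of each round, was at 77.6, 101, 63.7 and 85.8 TPM in Erbb3-FF mice 3 to 6 and at 70.2, 103 and 88.6 TPM in ERBB3-dIE mice 4 to 6 of litter A. In litter B it was at 143 and 169 TPM in Erbb3-FF mice 1 and 2 and at 169, 154 and 130 TPM in ERBB3-dIE mice 1 to 3. It was the single member whose 5 litter B values all lay above its 7 litter A values, which 1.9% of all genes showed. The difference was 0.86 (SE 0.13, adjusted p = 0.0153), and it kept its call in all 12 fits without 1 library.

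Hadh, the dehydrogenase for medium and short chains, was at 327, 224, 190 and 213 TPM in Erbb3-FF mice 3 to 6 and at 167, 211 and 226 TPM in ERBB3-dIE mice 4 to 6 of litter A. In litter B it was at 335 and 319 TPM in Erbb3-FF mice 1 and 2 and at 408, 347 and 347 TPM in ERBB3-dIE mice 1 to 3. Erbb3-FF mouse 3 alone of litter A reached the litter B values, and the difference was 0.69 (adjusted p = 0.0252). The Hadh call ended in 6 of the 12 fits without 1 library, with limma adjusted p-values of up to 0.0650. These were the fits without Erbb3-FF mouse 1 or 4 or ERBB3-dIE mouse 1, 2, 4 or 5. They called 97 to 265 of all genes higher in litter B, against 902 with all mice. Ehhadh, whose values are given above, stood at 26.0 ± 5.29 TPM in litter A and 37.8 ± 4.67 TPM in litter B (0.59, adjusted p = 0.0212), and again Erbb3-FF mouse 3 (36.9 TPM) lay among the litter B mice. The Ehhadh call ended in 2 of those fits, without ERBB3-dIE mouse 1 or 4, as did that of Vnn1.

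Bdh1, which interconverts the ketone bodies acetoacetate and hydroxybutyrate, went the other way. It was at 49.8, 62.6, 58.5 and 74.1 TPM in Erbb3-FF mice 3 to 6 and at 66.3, 64.2 and 56.6 TPM in ERBB3-dIE mice 4 to 6 of litter A. In litter B it was at 38.9 and 46.5 TPM in Erbb3-FF mice 1 and 2 and at 31.7, 24.2 and 46.8 TPM in ERBB3-dIE mice 1 to 3. All 5 litter B values lay below all 7 litter A values, which 0.246% of all genes showed, and the difference was −0.72 (SE 0.16, limma adjusted p = 0.0293). Leaving out 1 library at a time ended that call in 9 of 12 fits. It held without Erbb3-FF mouse 2 or 3 or ERBB3-dIE mouse 3. Over the 12 fits the difference was −0.81 to −0.59. Where the call ended, 4 to 57 of all genes were lower in litter B, against 176 with all mice. The genotype difference of Bdh1 was −0.13 (adjusted p = 0.689).

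The litter counts depended on single mice. Without Erbb3-FF mouse 3, 10 members were higher in litter B and 1 was lower (15.7% and 8.54% of all genes). The members added were Hadhb (0.44), Crat (0.48), Acot2 (0.58), Ppargc1a (0.71) and Acsl1 (0.76). The ranges of 6 members then lay higher in litter B without overlap and those of 1 lower, against 8.09% and 2.76% of all genes. Without ERBB3-dIE mouse 1 or ERBB3-dIE mouse 4 the count of higher members fell to 2, Angptl4 and Acaa2. Calls over all genes fell as well, with 97 and 101 genes higher in litter B in these fits, against 902 with all mice. Enterocyte, ileum and goblet cell markers moved with litter as well. Of 12 enterocyte markers 6 were higher in litter B (median difference 0.89), and of 4 ileum markers 2 were higher. The enterocyte sums were 7279.9 to 30406 TPM in litter A and 15837 to 25577 TPM in litter B. The highest litter A sum was that of Erbb3-FF mouse 3. The other litter A mice reached at most 15623 TPM, below every litter B mouse. Of 8 goblet cell markers 4 were higher in litter B and the other 4 had negative differences that did not pass. Their sums were 18784 to 36523 TPM in litter A and 27756 to 67812 TPM in litter B. All 6 tested smooth muscle markers had negative litter differences (median −1.53), as had 7 of 8 crypt markers (median −0.72), and none passed. Mitochondrially encoded genes held 17.1 ± 3.23% of all TPM in litter A (SD, n = 7) and 11.9 ± 2.68% in litter B (n = 5). The part of these cells and of this share in the litter differences was not tested.

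**Figure D4:**
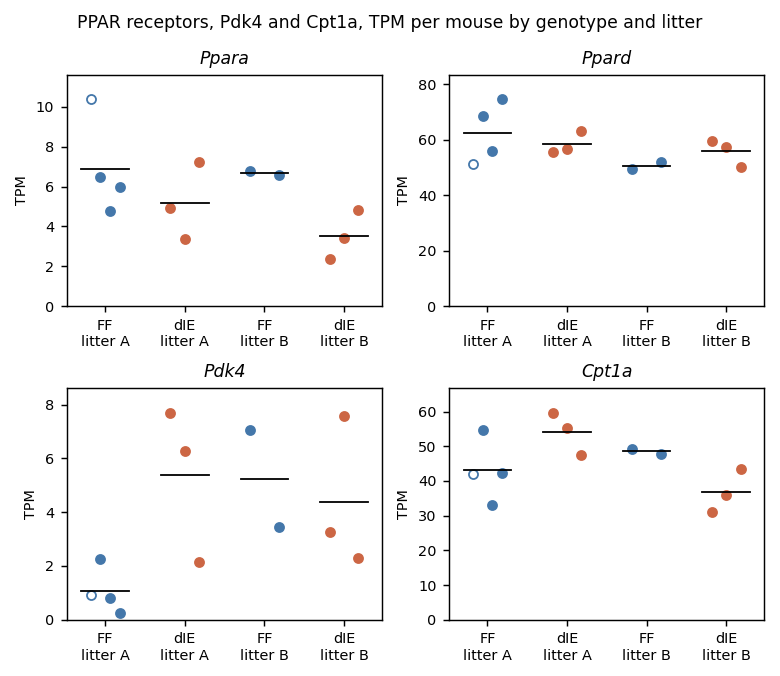
TPM of the receptor genes Ppara and Ppard and of Pdk4 and Cpt1a by genotype and litter (FF, Erbb3-FF, blue; dIE, ERBB3-dIE, orange). Each point is 1 mouse, the open point is Erbb3-FF mouse 3, lines are means, and every axis starts at 0. Pdk4 is low in the 4 Erbb3-FF mice of litter A (0.265 to 2.26 TPM), and the Cpt1a means lie in opposite order in the 2 litters.

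No member showed a genotype difference that differed between litters past the threshold, and 0% of all 12605 genes did. At an unadjusted p under 0.05 there were 1174 genes (9.31%), among them 2 members, Cpt1a and Pdk4. In simulated data this test found 0.667%, 14.7% and 62.7% of the log2 differences between litters of 0.5, 1 and 2. A count of 0 therefore does not show that the litters agreed. Pdk4 encodes a kinase that shuts pyruvate dehydrogenase when fat is burned. In litter A it was at 0.92, 2.26, 0.82 and 0.27 TPM in Erbb3-FF mice 3 to 6 and at 7.70, 6.26 and 2.14 TPM in ERBB3-dIE mice 4 to 6. In litter B it was at 7.05 and 3.44 TPM in Erbb3-FF mice 1 and 2 and at 3.26, 7.58 and 2.30 TPM in ERBB3-dIE mice 1 to 3. The genotype difference of Pdk4 was 1.90 in litter A and −0.31 in litter B. The difference between them was −2.21 (SE 0.84, unadjusted p = 0.0237, limma adjusted p = 0.431), and the litter-adjusted difference over all 12 mice was 0.99 (adjusted p = 0.288). For Cpt1a, with means of 43.0 ± 8.85 and 54.2 ± 6.21 TPM in litter A and 48.6 ± 1.01 and 36.8 ± 6.34 TPM in litter B, the difference between litters was −0.75 (unadjusted p = 0.0171, limma adjusted p = 0.408).

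The members' median of this difference between litters was −0.18, close to −0.15 over all tested genes. That median of all genes was 0.01 after median-of-ratios scaling and 0.04 after quantile normalization, where the members' medians were −0.01 and −0.12. The genotype difference had opposite signs in the 2 litters for 15 of the 31 tested members (48.4%), as it had for 40.6% of all tested genes. Within litter B alone the ranges of 10 members lay lower in ERBB3-dIE mice and those of 2 higher, as did 23.7% and 8.73% of all genes. Within litter A the ranges of Angptl4 alone lay apart, in the lower direction, as did those of 7.42% of all genes, and none lay higher, as 11.7% did.

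The genes that surround the members in the pathway were read from lists of the same kind. Of 7 tested ketone body genes none passed between genotypes. Of 18 tested peroxisomal genes 1 rose and 1 fell, with a median of −0.30. Acox2, an oxidase of branched chains and bile acid precursors, fell from 7.06 ± 4.13 to 1.80 ± 1.16 TPM (−1.76, adjusted p = 0.0168), and Slc27a2, a very long chain acyl-CoA synthetase, rose from 14.5 ± 2.93 to 22.7 ± 3.46 TPM (0.64, adjusted p = 0.0298). With 1 library left out at a time, the limma call of Slc27a2 ended in 8 of 12 fits and that of Acox2 in 1, without Erbb3-FF mouse 1.

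Of 22 further tested genes of mitochondrial oxidation 2 fell and none rose, with a median of −0.04. Acsl5, a fatty acid activating enzyme of the enterocyte, fell from 284 ± 51.6 to 166 ± 39.9 TPM (−0.81, adjusted p = 0.0381), and the thioesterase gene Acot9 from 30.6 ± 3.85 to 21.2 ± 2.83 TPM (−0.51, adjusted p = 0.0313). Their limma calls ended in 9 and 8 of the same 12 fits. Of 26 further PPAR target genes 14 could be tested and 1 fell, Creb3l3, a membrane-bound transcription factor of lipid metabolism, from 48.4 ± 34.3 to 10.5 ± 4.75 TPM (−2.15, adjusted p = 0.00744), and its call was kept in all 12 such fits. The median of that list was −0.03. Of 17 tested receptors and cofactors Ncor1, a corepressor of nuclear receptors, fell from 96.1 ± 8.50 to 77.0 ± 8.37 TPM (−0.34, adjusted p = 0.0469). That call was lost in 10 of the 12 fits and in 11 of 17 other alternatives. Among these were rescaling without mitochondrially encoded genes, median-of-ratios scaling and quantile normalization. There 5.16%, 6.66% and 7.50% of all genes were called. All 6 of these calls, of Acox2, Slc27a2, Acsl5, Acot9, Creb3l3 and Ncor1, ended within litter A alone, within litter B alone and without ERBB3-dIE mice 4 and 5. In these fits 0.0476%, 0.119% and 0.857% of all genes were called, against 5.36% in the fit reported. The loss of a call there therefore says little about these genes. The calls of Acsl5, Creb3l3 and Ncor1 also ended without the litter term, where 1.93% of all genes were called. Over all these alternatives the limma adjusted p of Creb3l3 reached 0.161.

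Between litters 7 of the 18 peroxisomal genes were higher in litter B and none lower, with a median of 0.49, where 7.16% of all genes were higher. Of the 14 further PPAR target genes 4 were higher and none lower (median 0.30), and of the 22 further genes of mitochondrial oxidation 3 were higher and none lower (median −0.04). None of the 7 ketone body genes passed. Among the 17 receptors and cofactors the deacetylase gene Sirt1 was higher (0.45), while Pparg (−1.61) and Ppargc1b (−0.78) were lower, where 1.4% of all genes were lower.

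The windows around the gene starts were searched for the PPAR response element in its direct-repeat form, which is AGGTCA, any 1 base and AGGTCA again, on both strands. Of 32851 windows of 300 bases (250 before to 50 after the start; RefSeq, GRCm38.p6), 0.0396% held an exact match and 3.86% a match with at most 2 mismatches. Windows of 26 members were found, 28 in all, and none held an exact match. With at most 2 mismatches there were 2, in Slc25a20 at chr9:108662142-108662154 and in Etfa at chr9:55512308-55512320. They are shown on the plus strand with 8 bases on either side, and capitals mark the bases that match the element.
Slc25a20: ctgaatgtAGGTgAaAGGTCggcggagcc
Etfa: ttgggagtAGGgCAaAGGTaAgggtgtgc
The Slc25a20 match lies 6 to 18 bases after the start, and the Etfa match lies at −77 to −65 relative to the start. Neither gene passed in the genotype or the litter test, with genotype differences of −0.04 and −0.02. The windows do not reach response elements in introns or far upstream, and those of Angptl4, Vnn1, Acaa2, Crat, Decr1 and Cyp4a10 were not analysed here.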

How the data were processed

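Transcript levels were measured in mucosal scrapings of the ileum of 12 mice, and each mouse's genotype, litter and number follow the labels. Per the labels' protocols, RNA was made with an Omega Bio-Tek kit, and stranded mRNA libraries were read single-end on a NextSeq. The authors used Salmon 1.10.0, CASAVA, DESeq2 and the build GRCm39, per the submitters' processing notes, and the authors' test design is not given in the sources used here. The authors deposited TPM per library for 55891 genes, which keep no depth, so the number of reads behind each value is unknown. They also deposited their own log2 fold change with its standard error and their adjusted p-value.

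The 12605 genes that reached 1 TPM in 6 or more libraries were tested as log2(TPM + 0.5) with limma 3.58.1 in R 4.3.3 (lmFit, eBayes with a variance trend). The model held litter and genotype, and a second model added their interaction. P-values were adjusted over all 12605 genes by the Benjamini-Hochberg method, with 0.05 as the threshold, and fold changes on this scale understate the change of low genes. The ± sign gives the SD between mice, and SE stands for limma's moderated error. All 12 sample columns were mapped and 0 were left unused.

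The members and all other lists were chosen with earlier results of these data known. All 32 members were to be named. Values per mouse were given for members past the threshold, for the member of each role group with the smallest genotype p, and for Pdk4, which was chosen after its values were seen. From each other list up to 4 genes past the threshold were named, or else the gene with the smallest genotype p. A pick of this kind is left out of the text and not reported here. Sirt1, Pparg, Ppargc1b and the Cyp4a relatives were named outside that rule.

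The steps were tested on simulated data. Alternatives covered the pseudocount, the filter, the scaling, the variance, the covariates, the libraries and the authors' test. No genome of the build GRCm39 was used, and coordinates and promoter sequence are from RefSeq on GRCm38.p6. The plots were made in matplotlib 3.10.9.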

Additional observations from a re-analysis of the deposited data

Results flagged for a closer look

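In 2 of 62 groups of 6 mice tested, the highest mouse lay apart from the other 5 by more than Dixon's 95% limit allows, and chance alone gives about 1 such group in 20. Ppara was at 10.4 TPM in Erbb3-FF mouse 3, with the next Erbb3-FF mouse at 6.75 TPM. Without that mouse the genotype difference of Ppara was −0.49 (limma adjusted p = 0.253), against −0.59 with it. Acadm, the medium-chain acyl-CoA dehydrogenase gene, was at 253 TPM in Erbb3-FF mouse 1, with the next Erbb3-FF mouse at 202 TPM. No member had a genotype difference that differed between the litters past the threshold.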

How the results depend on the processing

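The limma count of members lower in ERBB3-dIE mice (1, Angptl4) was 0 with no filter on low values, without the litter term, in litter A alone, in litter B alone, without Erbb3-FF mice 5 and 6 and without ERBB3-dIE mice 4 and 5. Over all genes 2 were lower in litter A alone, 9 in litter B alone and 65 without ERBB3-dIE mice 4 and 5, against 467 in the fit reported. With no filter there were 245 such genes, without the litter term 156 and without Erbb3-FF mice 5 and 6 there were 368. The count of lower members was 0 to 1 in the 12 fits without 1 library. Over all alternatives run except the fits without 1 library, the Angptl4 difference lay between −1.43 and −0.81, with an adjusted p of 0.0104 to 0.476. The count of higher members (0) was 2 in the authors' deposited test, Hadhb and Vnn1, and 0 to 1 without 1 library. Members higher in litter B (5) numbered 10 with library weights, 3 without the genotype term, 0 without Erbb3-FF mice 5 and 6, 0 without ERBB3-dIE mice 4 and 5, and 2 to 10 without 1 library. Over all genes 1847 were higher with library weights and 261 without the genotype term, against 902 in the fit reported. Without Erbb3-FF mice 5 and 6 there were 4 such genes, and without ERBB3-dIE mice 4 and 5 there were 0. Members lower in litter B (1) numbered 0 with no filter, 2 after quantile normalization, 0 without either pair of mice, and 0 to 1 without 1 library. Over all genes 26 were lower with no filter and 453 after quantile normalization, against 176 in the fit reported. Without Erbb3-FF mice 5 and 6 there were 3 such genes, and without ERBB3-dIE mice 4 and 5 there were 0. The interaction count was 0 in all fits run. In single litters the genotype difference changed sign for many members, with opposite signs in the 2 litters for 15 of 31. Among those given mouse by mouse for their genotype difference, Bdh1 was 0.037 in litter A and Pdk4 was −0.31 in litter B. The causes were not tested. The depth behind low members such as Pdk4 and Acot2 is unknown.

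With mouse number as a replicate block, the count of members called was 0 between genotypes and 0 between litters, in either direction. Over all genes 68 were higher and 148 lower between genotypes, against 209 and 467 in the fit reported. Between litters 0 genes were called in the block fit. The Bdh1 litter difference was 0.19 there. In that fit litter rests on number 3 alone, the single number whose mice come from different litters. The numbers are not known to pair the mice: same-numbered mice had correlations of deviations from the genotype means of 0.0739 to 0.357, and after litter none of 6 correlated best with its own number.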
